A study of Homo sapiens with 40 samples.

Results

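The Fc receptor-like family was represented by 7 genes, FCRL1, FCRL2, FCRL3, FCRL4, FCRL5, FCRLA and FCRLB, out of 19775 genes measured on 40 one-colour expression arrays of human lymphoma cell lines. A probe set counted as a member when its only annotated gene symbol was one of these 7, which gave 21 of the 54675 probe sets. Each gene was read from its probe set of highest mean signal and the other probe sets served as a check. All 7 genes were among the 15211 that passed the filter on dim signals (brighter than the array median on 2 or more arrays). Of these, 6 were above the median on 32 or more arrays, while FCRL4 was above it on 4 arrays.

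The arrays came from 10 human diffuse large B-cell lymphoma (DLBCL) cell lines, each given 500 nM GSK126, an inhibitor of the histone methyltransferase EZH2, or 0.1% DMSO alone for 72 h. Each line and treatment had 2 arrays. The lines labelled EZH2 mutant, ordered by the labels' average gIC50 for growth (lower means more sensitive), were Pfeiffer (28 nM), WSU-DLCL2 (134 nM), KARPAS-422 (232 nM), SU-DHL-10 (448 nM), SU-DHL-6 (582 nM), DB (861 nM) and SU-DHL-4 (4828 nM). The lines labelled wild type were HT (516 nM), OCI-LY-19 (1019 nM) and Toledo (13786 nM). The labels do not name the mutation, and each genotype is found only in its own lines, so EZH2 status and the rest of a line's background cannot be told apart. Both arrays of a group are titled biological replicates, but whether they came from separate cultures is not stated, so p-values measure only the spread between these arrays. These are bulk cultures, in which fewer expressing cells and less RNA per cell cannot be told apart.

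Fc receptor-like proteins belong to the immunoglobulin superfamily and resemble the classical receptors for antibody constant regions. Most are surface proteins of B cells whose cytoplasmic tails carry tyrosine motifs that recruit kinases or inhibitory phosphatases, and so tune signalling from the B cell receptor. FCRLA and FCRLB lack a transmembrane region and stay inside the cell. EZH2 is the catalytic subunit of the Polycomb complex that methylates histone H3 at silenced genes, and germinal centre B cells, from which many of these lymphomas arise, express it at a high level.

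The promoters are shown because several of the genes moved in the same lines and because regions rich in CG pairs are where Polycomb complexes often bind. All 7 genes were found in RefSeq (build GRCh38.p14) with 9 windows of 300 bases, from 250 before to 50 after an annotated start, of which 3 belonged to FCRLB. The 9 windows held 0 to 3 CG pairs, against a median of 14 over 35116 windows of the same length. The motif ACTTCC, an ETS-type core added after the sequences were read, was found on either strand in 5 of the 7 genes (FCRL1, FCRL2, FCRL4, FCRL5 and FCRLA) and in 22.8% of all windows. The ETS motif GAGGAA was found in 4 genes (FCRL1, FCRL4, FCRLA and FCRLB) and in 27.9% of windows. In FCRL1 and FCRLA it overlapped ACTTCC, and in FCRLB it was found only in the second window. A gene counted if any of its windows matched, so for FCRLB, with 3 windows, the share of single windows is not a like measure. The interferon-type motif, a repeat of GAAA with 2 free bases between, occurred in FCRL1 and FCRLA (3.57% of windows) and the octamer ATGCAAAT in FCRLB (1.77%). The E-box CAGGTG (20.6% of windows), the EBF motif CCCNNGGG (19.1%) and the TATA box TATAAA (11.5%) had no match in any member's windows. The windows of FCRL3, FCRL2, FCRL5 and FCRLA, whose responses are described most fully, are printed 5′ to 3′ on the gene's strand, with capitals marking ACTTCC or GAGGAA on either strand.
FCRL3 promoter, minus strand, chr1:157700720-157701019, with neither motif: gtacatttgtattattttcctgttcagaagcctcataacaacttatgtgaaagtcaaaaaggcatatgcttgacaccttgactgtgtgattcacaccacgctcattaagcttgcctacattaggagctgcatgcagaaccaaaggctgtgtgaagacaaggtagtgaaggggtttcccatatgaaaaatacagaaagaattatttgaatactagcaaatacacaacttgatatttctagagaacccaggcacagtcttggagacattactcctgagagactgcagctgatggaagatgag
FCRL2 promoter, minus strand, chr1:157777083-157777382, with ACTTCC from -60: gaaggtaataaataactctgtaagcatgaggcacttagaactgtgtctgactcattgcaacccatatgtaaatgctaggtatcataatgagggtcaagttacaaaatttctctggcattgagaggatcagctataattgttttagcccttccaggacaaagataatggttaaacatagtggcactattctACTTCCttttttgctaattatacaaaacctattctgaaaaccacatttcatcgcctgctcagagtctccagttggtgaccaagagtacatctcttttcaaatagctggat
FCRL5 promoter, minus strand, chr1:157552466-157552765, with ACTTCC from -151 and from -18: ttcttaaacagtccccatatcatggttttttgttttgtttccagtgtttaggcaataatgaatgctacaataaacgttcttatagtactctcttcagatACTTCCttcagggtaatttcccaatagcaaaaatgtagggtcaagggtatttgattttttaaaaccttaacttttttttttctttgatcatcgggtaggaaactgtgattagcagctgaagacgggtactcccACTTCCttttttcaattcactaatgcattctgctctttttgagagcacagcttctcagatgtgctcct
FCRLA promoter, plus strand, chr1:161706979-161707278, with ACTTCC from -44 overlapping GAGGAA on the other strand from -42: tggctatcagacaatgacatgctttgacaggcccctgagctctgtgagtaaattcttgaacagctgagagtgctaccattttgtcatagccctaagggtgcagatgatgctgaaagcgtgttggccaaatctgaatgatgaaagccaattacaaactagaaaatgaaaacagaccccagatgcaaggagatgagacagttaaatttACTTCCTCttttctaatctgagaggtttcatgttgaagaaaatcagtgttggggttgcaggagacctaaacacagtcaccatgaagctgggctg
Positions are of the leftmost base, counted from the annotated start. A match describes the letters in these windows, and binding was not measured.

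Signals are given on the scale log2(signal + 17.7), which understates changes of dim genes and whose floor is 4.15, and array medians on this scale ran from 6.26 to 6.73. The 2 arrays of a group correlated at 0.973 to 0.985 over all probe sets, while between lines the correlation was 0.864 to 0.957. The B cell genes PAX5, CD79A, CD79B, CD22 and CD74 were above the median on all 40 arrays and MS4A1, which encodes CD20, on 36, the exception being OCI-LY-19 (5.64 in DMSO). Of 6 tested T and natural killer cell markers none was called in any line, but CD8A stood at 13.66 in DMSO-treated Pfeiffer and CD3D at 12.34 in KARPAS-422. EPCAM, an epithelial marker, stood at 13.57 in Pfeiffer and at 5.44 or less in the other lines. Of the myeloid markers, ITGAM and CSF1R fell in KARPAS-422 (by 1.51 and 1.13) and LYZ rose in SU-DHL-10 (1.54), none of them above 7.31 on any array. The part of these markers in the results was not tested.

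Each member was called in at least 1 line. Over the 7 genes and 10 lines, 14 of 70 responses rose and 3 fell (limma, Benjamini-Hochberg adjusted p under 0.05 over 15211 genes), where 7.55% of all genes' responses rose and 5.13% fell. Without FCRL4, which passed the filter only through its GSK126 arrays in HT and SU-DHL-10, 12 of 60 rose and 3 fell. The falls numbered 6 with arrays at equal medians and 7 with a pseudocount of 64. FCRL3 was called most often, rising in 5 lines, and FCRL2 was the only member that rose in some lines and fell in others. Of all genes tested, 2.73% rose in 5 or more lines, 57.3% were called in at least 1 line and 9.09% both rose and fell.

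In Pfeiffer, the most sensitive line, 4 of 7 members rose (14.6% of all genes did) and none fell (9.93%), with a median change of 0.99 over the members and 0.07 over all genes. WSU-DLCL2 had 2 risen (13.9%) and none fallen (12.7%), with medians of 0.44 and 0.07, and KARPAS-422 had 3 risen (15.5%) and none fallen (13.4%), with medians of 0.60 and 0.01. SU-DHL-10 went both ways, with 1 risen (FCRL4; 11% of all genes) and 2 fallen (7.16%). HT had 2 risen (FCRL3 and FCRL4; 6.31%) and none fallen (3%), and the FCRL4 calls are not to be read against these shares. SU-DHL-6 had none risen (7.42%) and 1 fallen (3.56%). OCI-LY-19 had 1 risen (1.97%) and none fallen (0.44%), as did SU-DHL-4 (2.14% and 0.454%). DB had no call (2.5% and 0.618%; 2 members at an unadjusted p under 0.05) and Toledo none (0.138% and 0.0263%; 1 member at an unadjusted p under 0.05). The member medians of the last 7 lines lay between -0.12 and 0.14. With 7 genes, a share above the background in 1 line rests on few genes.

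**Figure D1:**
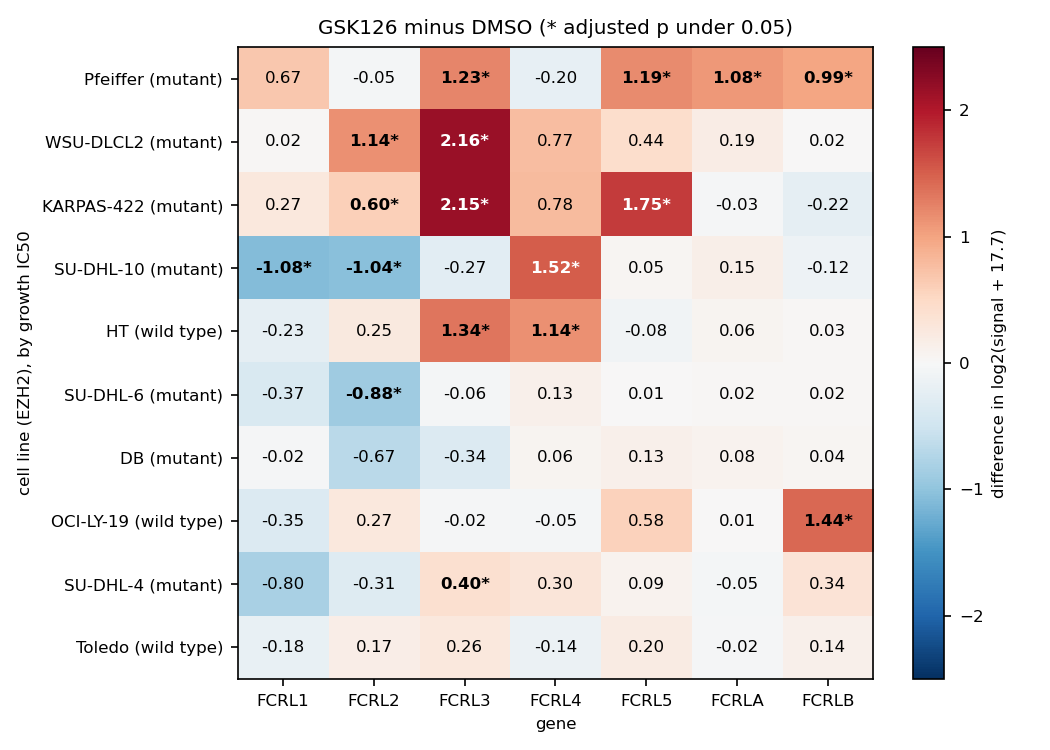
Difference between GSK126 and DMSO group means (log2 scale) for each Fc receptor-like gene (columns) in each of the 10 lines (rows, most sensitive at the top). Starred cells have an adjusted p under 0.05. The darkest cells are FCRL3 in WSU-DLCL2 (2.16) and KARPAS-422 (2.15), and the 3 starred blue cells are FCRL1 and FCRL2 in SU-DHL-10 and FCRL2 in SU-DHL-6.

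FCRL3 encodes a receptor whose tail holds both an inhibitory and an activating type of tyrosine motif. In WSU-DLCL2 its arrays read 8.85 and 8.67 with DMSO and 10.91 and 10.93 with GSK126. KARPAS-422 read 10.02 and 10.02 with DMSO against 12.13 and 12.21 with GSK126. The groups were far apart in both lines, and the rises were 2.16 and 2.15 (SE 0.10), each 4.45-fold (limma adjusted p = 1.01e-14 and 1.65e-15). Few genes rose more: 0.309% of those tested had a higher change in WSU-DLCL2 and 0.920% in KARPAS-422. The difference between these 2 responses was 0.00, with a 95% interval of -0.30 to 0.30.

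HT, a wild type line, read 7.22 and 7.13 for FCRL3 with DMSO and 8.50 and 8.53 with GSK126. Pfeiffer went from 6.93 and 6.89 to 8.07 and 8.21. These rises were 1.34 (2.53-fold, adjusted p = 6.68e-10) and 1.23 (2.34-fold, adjusted p = 4.93e-10). They differed from each other by less than their error (-0.11 for Pfeiffer minus HT, 95% interval -0.41 to 0.19), and both were smaller than the WSU-DLCL2 response (adjusted p = 3.78e-05 for Pfeiffer and 0.000246 for HT).

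SU-DHL-4 rose slightly, from 10.30 and 10.29 to 10.66 and 10.73 (0.40, adjusted p = 0.0317). That call was lost when any 1 of its 4 arrays was left out, which leaves 1 array in a group, while the change stayed at 0.37 to 0.43. With arrays at equal medians the call was also lost (0.37, adjusted p = 0.191). In the other 5 lines FCRL3 was not called. SU-DHL-6, which had the highest DMSO level, read 13.59 and 13.57 against 13.55 and 13.50, and DB read 13.01 and 12.90 against 12.62 and 12.62 (-0.34, adjusted p = 0.0807). SU-DHL-10 read 10.92 and 10.71 against 10.52 and 10.56 (-0.27, adjusted p = 0.073), which became -0.37 (adjusted p = 0.0409) without the second DMSO array and -0.52 (adjusted p = 0.00252) with arrays at equal medians. At equal medians the median response of all genes in SU-DHL-10 was -0.17. Toledo and OCI-LY-19, the lines of lowest FCRL3 level, had changes of 0.26 and -0.02. The 10 responses were not equal (moderated F test, adjusted p = 1.42e-14, as for 38.8% of all genes), and FCRL3 differed in 32 of the 45 pairs of lines. Over all 7 genes 90 of 315 response differences were called, against 9.43% over all genes and pairs (0.736% to 21.3% for single pairs). FCRL4 gave 4 of these calls, which are not to be read against that share, as it passed the filter only through groups where it was high.

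FCRL2, a receptor with inhibitory tyrosine motifs found on memory B cells, changed in opposite directions in different mutant lines. It rose in WSU-DLCL2 from 9.52 and 9.54 to 10.51 and 10.83, which was 1.14 (SE 0.21, 2.2-fold, adjusted p = 0.000146). In SU-DHL-10 it fell from 9.51 and 9.19 to 8.38 and 8.26, which was 2.05-fold (-1.04, adjusted p = 0.000682). These lines had DMSO levels that did not differ beyond their error (9.53 and 9.35, adjusted p = 0.537). Their responses differed by 2.17 (95% interval 1.56 to 2.79, adjusted p = 1.12e-05). Whether the starting level of FCRL2 has a part in its response was not tested. SU-DHL-6 also fell, from 11.99 and 11.97 to 11.12 and 11.08 (-0.88, adjusted p = 0.00592). KARPAS-422, with a similar start, rose from 11.59 and 11.62 to 12.17 and 12.25 (0.60, adjusted p = 0.0314). The treatments did not overlap in these 4 lines, which were picked by their calls, so this adds no support. The KARPAS-422 call was lost without any 1 of its 4 arrays, which leaves 1 array in a group, while the change stayed at 0.56 to 0.65. With arrays at equal medians that call was also lost (0.43, adjusted p = 0.141), where the median response of all genes in KARPAS-422 was -0.14. DB read 11.40 and 11.29 against 10.87 and 10.48 (-0.67, adjusted p = 0.0881), and its fall was called with a pseudocount of 64 (-0.66, adjusted p = 0.0281). The remaining changes lay between -0.31 and 0.27. The responses of FCRL2 differed between lines (F test adjusted p = 1.37e-05) and in 18 of 45 pairs.

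FCRL2 and FCRL3 lie next to each other among protein-coding genes, and their responses ranked the lines alike. Over the 10 lines the responses of the 2 genes correlated at 0.82 and their DMSO levels at 0.85, as a description of values that share the same arrays. The clearest departures were Pfeiffer and HT, where FCRL3 rose and FCRL2 changed by -0.05 and 0.25.

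**Figure D2:**
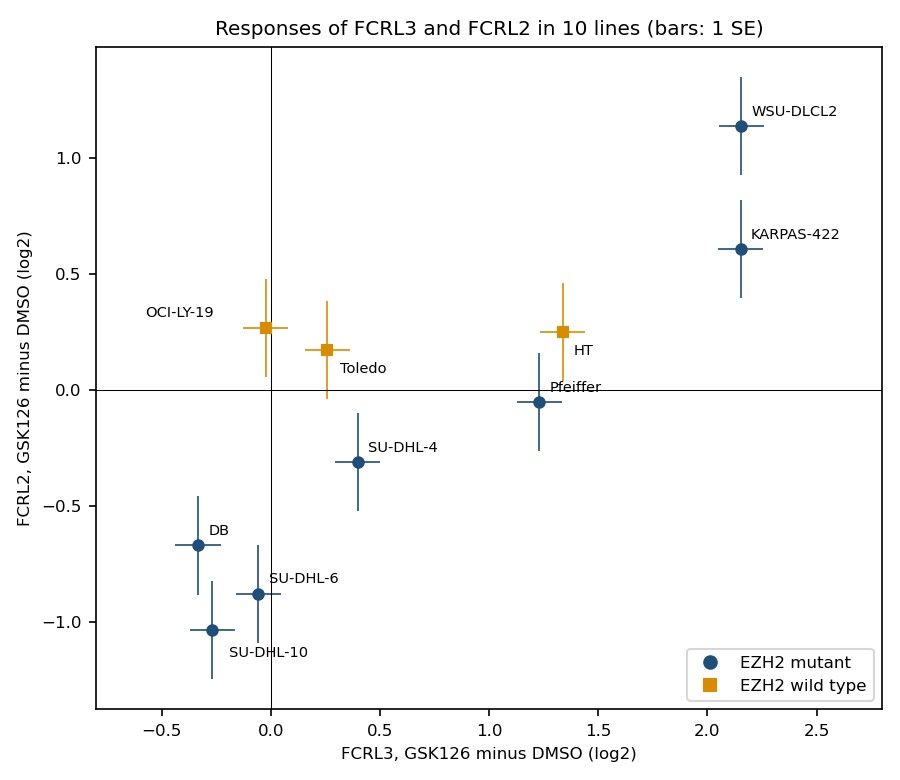
Response of FCRL2 (vertical, GSK126 minus DMSO, log2) against that of FCRL3 (horizontal) in 10 lines, with bars of 1 SE, circles for EZH2 mutant and squares for wild type lines. WSU-DLCL2 and KARPAS-422 sit at the upper right, SU-DHL-10, SU-DHL-6 and DB at the lower left, and HT and Pfeiffer to the right with FCRL2 near 0.

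FCRL1, the member with activating tyrosine motifs only, was called once. In SU-DHL-10 it fell from 8.86 and 8.92 to 7.67 and 7.95, which was 2.12-fold (-1.08, SE 0.27, adjusted p = 0.00451), and without the first GSK126 array the fall was no longer called (-0.94, adjusted p = 0.0665). SU-DHL-4 read 8.52 and 8.56 against 7.83 and 7.65 (-0.80), a gap without overlap that did not pass the test (adjusted p = 0.123). Pfeiffer, where FCRL1 was near the floor, read 4.47 and 4.65 against 5.61 and 4.86 (0.67, adjusted p = 0.0701), and 1.05 (adjusted p = 0.0175) without the second GSK126 array. OCI-LY-19 read 6.14 and 5.53 against 4.82 and 6.15 (-0.35), with -1.02 (adjusted p = 0.0314) when the second GSK126 array was left out. The other 6 changes ran from -0.37 in SU-DHL-6 to 0.27 in KARPAS-422. Responses differed between lines (F test adjusted p = 0.0192, or 0.104 with a replicate block), in 3 of 45 pairs, of which Pfeiffer against SU-DHL-10 was the widest (1.75, adjusted p = 0.00165).

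FCRL5, a receptor for immunoglobulin G with both kinds of tyrosine motif, rose in 2 sensitive mutant lines. KARPAS-422 read 5.01 and 6.25 with DMSO and 7.29 and 7.46 with GSK126, a rise of 1.75 (SE 0.33, 3.36-fold, adjusted p = 0.000137). Its DMSO arrays lay far apart, and without the first of them the rise was 1.13 (adjusted p = 0.0199). Pfeiffer read 6.37 and 5.54 against 6.90 and 7.38 (1.19, 2.27-fold, adjusted p = 0.00808). That call was lost without the second DMSO array (0.77, adjusted p = 0.186) or the second GSK126 array (0.94, adjusted p = 0.11). WSU-DLCL2, with the highest DMSO level of FCRL5, read 9.18 and 9.07 against 9.58 and 9.55 (0.44, adjusted p = 0.370), and OCI-LY-19 read 6.31 and 6.76 against 7.20 and 7.02 (0.58, adjusted p = 0.557). Neither passed the test, and the other 6 changes lay between -0.08 and 0.20. KARPAS-422 responded more than 7 of the other lines, among them WSU-DLCL2 (by 1.31, adjusted p = 0.0448), and these were the only 7 of 45 pairs that differed (F test adjusted p = 0.0258, or 0.0579 with a replicate block).

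FCRL4, a receptor for immunoglobulin A that marks a tissue-resident class of memory B cells, was dim throughout. On the DMSO arrays it read 4.23 to 6.12 and was never above the array median. The 4 arrays above the median were the GSK126 arrays of SU-DHL-10 (6.79 and 7.00, against 5.38 and 5.37 with DMSO) and of HT (6.61 and 6.66, against 5.40 and 5.59). FCRL4 therefore passed the filter only through the groups in which it was high, so its calls there (1.52, adjusted p = 0.000753, and 1.14, adjusted p = 0.0185) are a description and carry no weight as support. The HT call was also lost without any 1 of its arrays, which leaves 1 array in a group, while the change stayed at 1.04 to 1.24. WSU-DLCL2 and KARPAS-422 had changes of 0.77 and 0.78 from DMSO means of 4.84 and 4.36, close to the floor.

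FCRLA, which binds immunoglobulins in the endoplasmic reticulum and is abundant in germinal centre B cells, was called in Pfeiffer only. It rose there from 8.95 and 8.55 to 9.92 and 9.75 (1.08, SE 0.14, 2.12-fold, adjusted p = 5.50e-07). The other 9 changes lay between -0.05 and 0.19, and Pfeiffer differed from each of those 9 lines (adjusted p from 0.000106 to 0.0012), the only 9 pairs that did (F test adjusted p = 0.000669). In 8 lines FCRLA stood between 12.82 and 13.23 with DMSO, and whether the starting level has a part in the response was not tested. OCI-LY-19, the line of lowest level, read 6.97 and 6.33 with DMSO and 6.89 and 6.42 with GSK126.

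FCRLB, the other intracellular member, rose in the 2 lines in which it was lowest. OCI-LY-19 went from 6.03 and 6.26 to 7.45 and 7.71, which was 1.44 (SE 0.12, 2.71-fold, adjusted p = 2.60e-09) and higher than the change of 99.8% of all genes in that line. With that line fitted by itself the adjusted p was 0.0722. Pfeiffer went from 6.72 and 6.86 to 7.64 and 7.92 (0.99, 1.98-fold, adjusted p = 2.84e-07). The 2 rises differed by -0.45 for Pfeiffer minus OCI-LY-19 (95% interval -0.79 to -0.11, adjusted p = 0.0908). KARPAS-422, at 14.31 and 14.30 with DMSO, read 14.02 and 14.15 with GSK126 (-0.22, adjusted p = 0.190). With arrays at equal medians this was -0.39 (adjusted p = 0.0223), while the median response of all genes in that line moved from 0.01 to -0.14. The other 7 changes ran from -0.12 to 0.34, and 17 of 45 pairs differed (F test adjusted p = 4.24e-08).

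In Pfeiffer, where FCRL3, FCRL5, FCRLA and FCRLB rose together, 4 of 6 B cell markers also rose (14.6% of all genes did). The signal summed over these 6 markers was 60782 to 62225 on the DMSO arrays and 71672 to 75794 on the GSK126 arrays. The summed signal of the stromal and epithelial markers, none of which was called there, went from 12937 to 14014 to 10202 to 11010. By far the brightest of these markers in Pfeiffer was EPCAM (13.57 with DMSO), whose change was -0.41 (limma adjusted p = 0.508). In OCI-LY-19, where FCRLB rose, 3 of 6 B cell markers rose (1.97% of all genes did), MS4A1 among them (0.88). The summed B cell signal was 22210 to 22959 with DMSO and 24267 to 24562 with GSK126. The B cell sums of WSU-DLCL2 (53910 to 56756, then 65474 to 65623) and KARPAS-422 (52788 to 53487, then 57161 to 60155) were also higher with GSK126 without overlap, as was that of DB (43209 to 43927, then 45049 to 45723), where no member was called. In HT, where FCRL3 rose, the B cell sum was lower with GSK126 (41442 to 41833, then 38852 to 39166). The T and natural killer cell sum was higher with GSK126 in Pfeiffer (13078 to 13365, then 13855 to 16002) and lower in KARPAS-422 (8650 to 9577, then 7030 to 7695). By far the brightest of these genes in Pfeiffer was CD8A (13.66 with DMSO), whose change was 0.17 (limma adjusted p = 0.869). In KARPAS-422 the brightest were CD3D and CD3G, with changes of -0.54 (adjusted p = 0.528) and -0.04 (adjusted p = 0.955). None of these genes was called. How often the sums of other sets of genes part without overlap was not computed. Whether these shifts in summed signal have a part in the responses of the family was not tested.

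The lines already differed widely in these genes without the drug. Of 315 comparisons of DMSO levels (7 genes by 45 pairs of lines) 231 were called, against 52.6% over all genes and pairs (40.1% to 57.9% for single pairs). FCRL4, never above the array median on a DMSO array, gave 18 of these calls, which are not to be read against that share. FCRL3 had the finest order, with all 45 pairs called: SU-DHL-6 13.58, DB 12.96, SU-DHL-10 10.81, SU-DHL-4 10.30, KARPAS-422 10.02, WSU-DLCL2 8.76, HT 7.18, Pfeiffer 6.91, OCI-LY-19 6.27 and Toledo 5.98. The 4 lines with the largest FCRL3 rises were neither the highest nor the lowest in this order. Whether the starting level has a part in the response was not tested.

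FCRLB was called in 43 pairs, with KARPAS-422 at 14.30, HT at 11.77, WSU-DLCL2 and SU-DHL-10 at 10.57 and 10.51 (adjusted p = 0.703 between them), DB and SU-DHL-4 at 9.69 and 9.58 (adjusted p = 0.463), Toledo at 8.35, SU-DHL-6 at 7.89, Pfeiffer at 6.79 and OCI-LY-19 at 6.15. For FCRL2, 40 pairs were called: SU-DHL-6, KARPAS-422 and DB (11.98, 11.61 and 11.35) led without neighbours among these 3 differing, DB stood above SU-DHL-4 (10.00, adjusted p = 3.99e-06), and Pfeiffer and OCI-LY-19 (6.80 and 6.59, adjusted p = 0.427) were lowest. FCRL1 ran from 10.26 in KARPAS-422, with WSU-DLCL2 (9.92) and SU-DHL-6 (9.81) not separated from it in turn, through 5 lines between 8.89 and 7.96, to OCI-LY-19 at 5.84 and Pfeiffer at 4.56, with 35 pairs called. Pfeiffer and OCI-LY-19 were the lowest lines for FCRL1, FCRL2, FCRLA and FCRLB.

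FCRL5 was highest in WSU-DLCL2 (9.12) and Toledo (8.81), which did not differ beyond their error (adjusted p = 0.445), and lowest in Pfeiffer (5.95) and KARPAS-422 (5.63). No neighbours in its order differed, though 31 pairs farther apart did. FCRLA separated only Pfeiffer (8.75) and OCI-LY-19 (6.65) from the rest and from each other among neighbours, with 19 pairs called. FCRL4 had no neighbours that differed and 18 pairs called, between 5.69 in SU-DHL-6 and 4.36 in KARPAS-422.

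**Figure D3:**
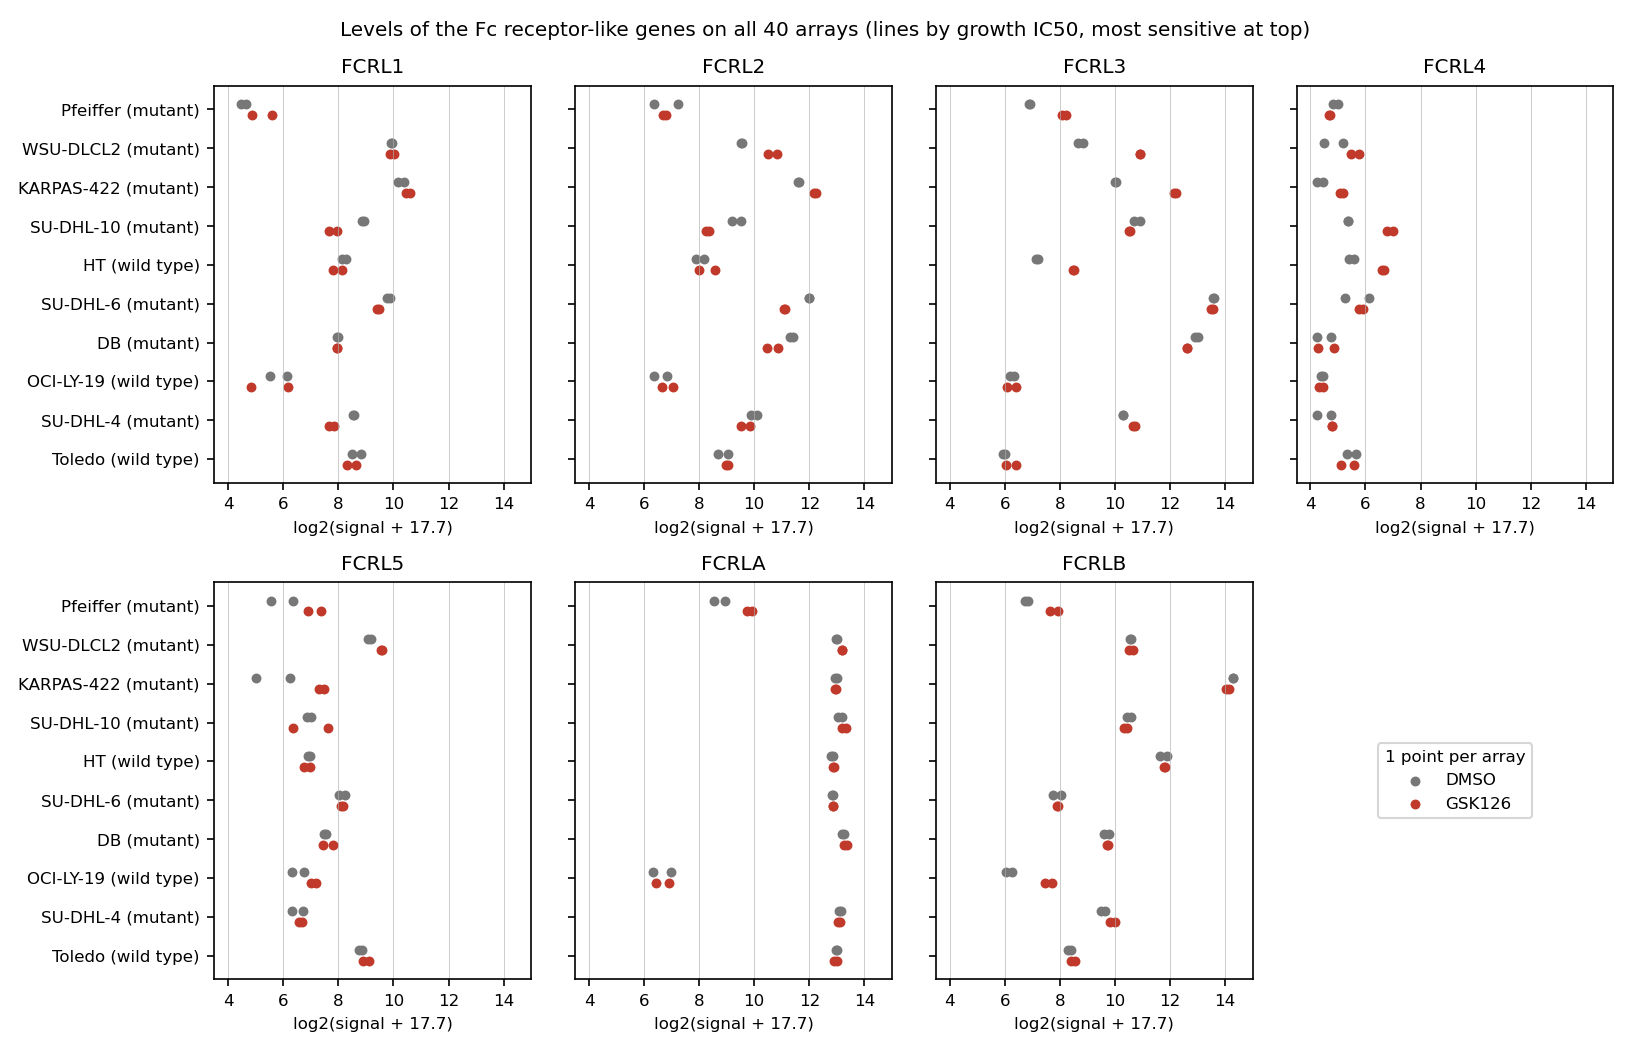
Level of each Fc receptor-like gene on every array, as log2 of the signal plus 17.7 (horizontal), by line (vertical, most sensitive at the top), with grey points for DMSO and red for GSK126. FCRL3 points of the 2 treatments stand apart in Pfeiffer, WSU-DLCL2, KARPAS-422 and HT, FCRLA sits near 13 in 8 lines, and FCRL4 sits at or below 7.00 on all arrays.

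The other probe sets repeated some of these responses and not others. The second FCRL3 probe set, above the array median on 13 of 40 arrays, rose by 2.19 in KARPAS-422 (adjusted p = 2e-04) and by 1.21 in WSU-DLCL2 (adjusted p = 0.0332), where only the second GSK126 array (6.82) was above the median. It was not called in HT (0.35, adjusted p = 0.747) or Pfeiffer (0.08, adjusted p = 0.927) and had the opposite sign in SU-DHL-4 (-0.07, adjusted p = 0.980). In Pfeiffer, HT and SU-DHL-4 this probe set was below the median on all arrays, so FCRL3 there rests on 1 probe set.

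Of the 4 other FCRL2 probe sets, the next brightest was called in the same direction in all 4 lines. It rose by 0.63 in WSU-DLCL2 and by 0.59 in KARPAS-422 and changed by -0.91 in SU-DHL-10 and -0.88 in SU-DHL-6. This probe set was also called in DB (-0.66, adjusted p = 0.013) and SU-DHL-4 (-0.74, adjusted p = 0.00591), where the brightest was not called. In Pfeiffer the next brightest read 4.71 and 4.41 with DMSO and 4.92 and 5.22 with GSK126 (0.51, adjusted p = 0.0169). All were below the array median and near the floor, and the brightest gave -0.05 there. The third was called in WSU-DLCL2 and KARPAS-422 (0.82 and 0.81) but not in SU-DHL-10 or SU-DHL-6 (-0.80 and -0.77), and the 2 dimmest in none of the 4 lines. Over the 10 lines the responses of these 4 probe sets correlated with the brightest at 0.85, 0.93, 0.92 and 0.44, the last being the dimmest. Both other FCRLA probe sets rose in Pfeiffer (0.81 and 0.96), and 1 of them also in WSU-DLCL2 (0.31, adjusted p = 0.0157). For FCRL5, KARPAS-422 was called with 2 of the 4 others (1.02 and 2.00), and Pfeiffer with none of them (0.06 to 0.77). The FCRL1 fall in SU-DHL-10 was -0.60 (adjusted p = 0.219) with its second probe set, and FCRLB had 1 probe set only.

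**Figure D4:**
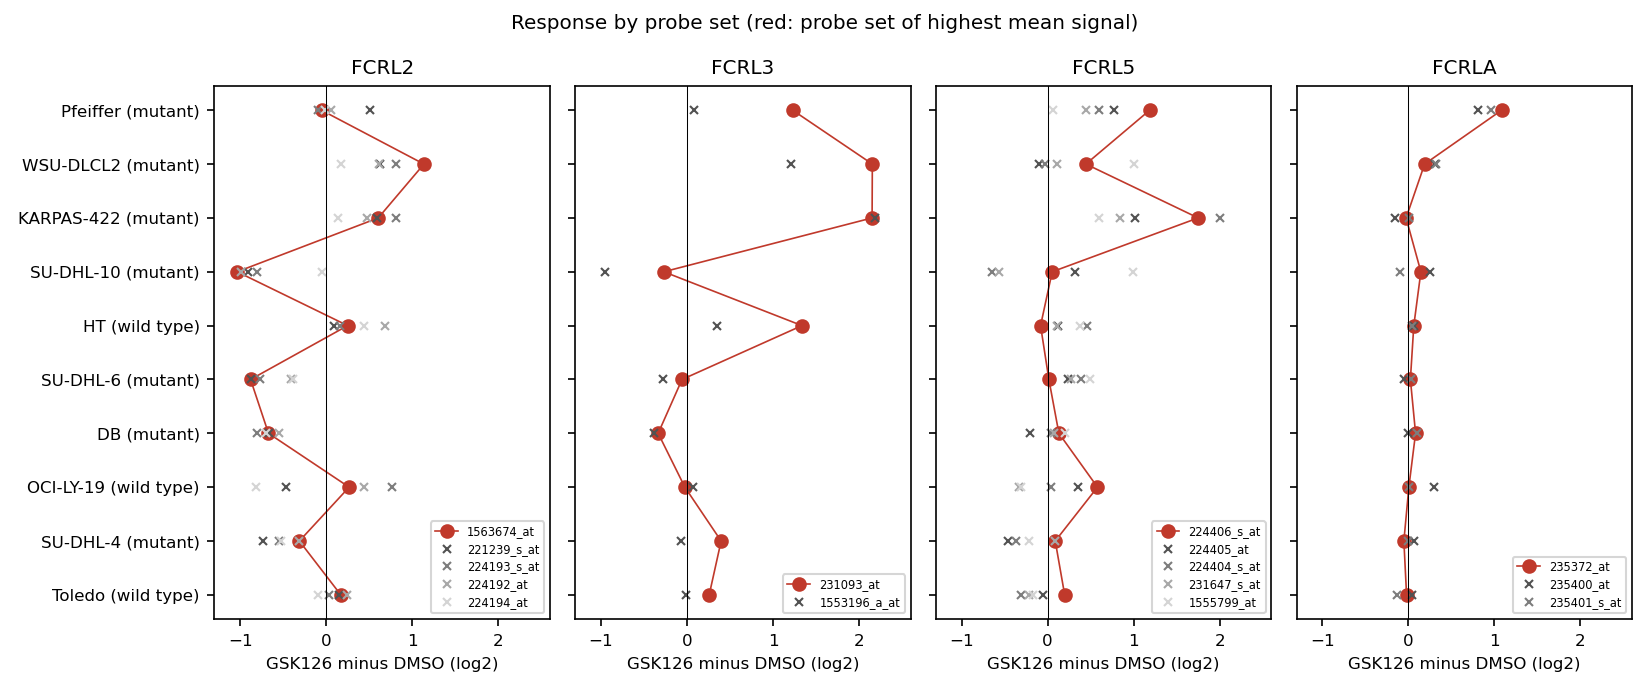
GSK126 response (horizontal, log2) of every probe set of FCRL2, FCRL3, FCRL5 and FCRLA in each line (vertical), with red circles for the probe set of highest mean signal and crosses for the others. The crosses lie near the circles for FCRLA and for most FCRL2 points. For FCRL3 the crosses lie to the left of the circles most clearly in Pfeiffer, WSU-DLCL2, HT, SU-DHL-10 and SU-DHL-4.

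The design implies a comparison of genotypes and of drug sensitivity, with the line as the replicate. No member was called in any of these tests (limma on 1 value per line, 7 mutant and 3 wild type lines). The mean response of the mutant lines called 9.95% of all genes and no member. At an unadjusted p under 0.05 there were 3 members, among them FCRL4, which passed the filter only through groups where it was high. The share of all genes at that unadjusted threshold was not computed for the tests on 1 value per line, so such counts are a description. FCRL3 averaged 0.75 (SE 0.30, adjusted p = 0.130) and FCRL5 0.52 (SE 0.20, adjusted p = 0.109), the latter becoming 0.55 (adjusted p = 0.0497) with a description tag of unstated meaning as a covariate. The mean of the wild type lines and the difference between genotypes called 0% of all genes and no member, also at an unadjusted p under 0.05. FCRL3 rose in 1 of 3 wild type and 4 of 7 mutant lines, and its mutant minus wild type response was 0.23 (SE 0.55, adjusted p = 0.992).

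The slope of the response on log10 of the gIC50 called 0.00657% of all genes and no member, with 2 members at an unadjusted p under 0.05. The 7 slopes ran from -0.65 for FCRL3 (SE 0.31, adjusted p = 0.473) to -0.08 for FCRLB (SE 0.20). All were below 0, but they share the same 10 lines. The share of all genes with a slope below 0 was not computed, so the common sign is a description. FCRLA had the lowest p, with -0.32 per factor of 10 (SE 0.09, adjusted p = 0.269), but this rested on Pfeiffer, without which it was -0.08 (adjusted p = 0.691). For DMSO levels by genotype, called for 0.0526% of all genes and no member (2 at an unadjusted p under 0.05), FCRL3 averaged 10.48 in mutant and 6.47 in wild type lines. Its mutant lines ran from 6.91 to 13.58 and its wild type lines from 5.98 to 7.18, and the difference of 4.0 (SE 1.22) had an adjusted p of 0.488 with limma.

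Genes whose pattern over the 10 lines was most like a member's are given as a description, with Pearson's r over values from the same arrays. By response, FCRL3 was most like LOC285097, GMFB and ATRX (0.92, 0.91 and 0.91) and FCRL2 most like LAMTOR3, CNTROB and ZNF248 (0.92, 0.92 and 0.91). FCRL5 was most like TNFAIP8, MBP and TRIM22 (0.98, 0.97 and 0.96), FCRLA most like CALML3, ACTR3 and NBL1 (each 0.98), and FCRL1 most like ZNF512, PHF1 and ANP32A (0.98, 0.92 and 0.90). FCRLB responses were most like those of RFTN1, GCSIR and SLC35C1 (0.92, 0.89 and 0.89), and FCRL4 responses like those of LGR6, MTERF2 and CAND2 (0.94, 0.92 and 0.92). Several of these values, FCRLA's most clearly, follow a change in a single line.

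By DMSO level the closest genes were PXMP4, LOC101929609 and TFF1 for FCRL3 (0.93, 0.92 and 0.90), BTBD10, ZNF804A and KBTBD8 for FCRL2 (0.91, 0.88 and 0.88), and CBLB, VCPKMT and KBTBD8 for FCRL1 (0.95, 0.92 and 0.90). They were LMCD1, DMD and WDR91 for FCRL5 (0.92, 0.91 and 0.87), SLC41A2, TDRKH and TMPRSS5 for FCRL4 (0.90, 0.90 and 0.88), PTPRC, TFCP2 and AFF2 for FCRLA (0.96, 0.95 and 0.95) and NPAT, ATG2B and IGSF6 for FCRLB (0.94, 0.94 and 0.93). Within the family, DMSO levels of FCRL1 and FCRLA (0.83) and of FCRL1 and FCRL2 (0.79) went together most after FCRL2 and FCRL3, and by response FCRL1 and FCRL5 (0.68).

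The counts of related genes are set against the shares of all genes given above for each line. Of 10 tested other Fc and immunoglobulin receptors, 3 rose in WSU-DLCL2 (13.9% of all genes), 2 each in Pfeiffer (14.6%) and SU-DHL-6 (7.42%), 1 each in KARPAS-422 (15.5%) and SU-DHL-10 (11%), and 1 fell in Pfeiffer (9.93%), with few genes behind each share. FCGR2B, the inhibitory IgG receptor of B cells and an upstream neighbour of FCRLA, rose in WSU-DLCL2 (1.65, SE 0.25, adjusted p = 1.07e-05). In Pfeiffer it passed the test downwards (-0.84, adjusted p = 0.0146) from a DMSO level of 5.49, below the array median. The close copies FCGR2B and FCGR2C may share signal on these probe sets. FCER2, which encodes CD23, was above the array median on 0 arrays and was not tested, and FCRL6 was not analysed here. Of 10 tested other inhibitory receptors of B cells, 4 rose in WSU-DLCL2, where their median change was 0.62 against 0.07 over all genes, and 1 each in KARPAS-422, SU-DHL-6 and DB. The WSU-DLCL2 genes were CD72 (0.74), LAIR1 (1.02), CEACAM1 (1.62) and PECAM1 (0.57).

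Enzymes and adaptors that work downstream of the inhibitory motifs moved in both directions. Of 10 tested, 4 rose and 1 fell in Pfeiffer (14.6% and 9.93% of all genes), 3 rose and 2 fell in WSU-DLCL2 (13.9% and 12.7%), 1 rose and 4 fell in KARPAS-422 (15.5% and 13.4%), and 5 fell in HT (3%). PTPN6, the phosphatase SHP-1 recruited by inhibitory motifs, rose in WSU-DLCL2 (1.21) and Pfeiffer (0.79) and fell in KARPAS-422 (-1.15) and HT (-0.67), with SE 0.12 and adjusted p from 8.57e-09 to 0.000267. INPP5D, the inositol phosphatase SHIP-1, rose in Pfeiffer (0.82, adjusted p = 1.07e-06) and fell in HT (-0.34, adjusted p = 0.0410). PAG1, an adaptor that holds the kinase CSK at the membrane, rose in Pfeiffer (0.63) and fell in WSU-DLCL2 (-0.26), KARPAS-422 (-0.29) and HT (-0.27). 

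Among 15 tested kinases and adaptors of B cell receptor signalling, 8 rose in Pfeiffer (14.6% of all genes) and 8 rose and 1 fell in WSU-DLCL2 (13.9% and 12.7%). In KARPAS-422 3 rose and 3 fell (15.5% and 13.4%), and in OCI-LY-19 4 rose (1.97%). Their median change was 0.19 in Pfeiffer and 0.34 in WSU-DLCL2 (0.07 over all genes in both), and -0.07 in KARPAS-422 and in OCI-LY-19 (0.01 in both). CD79B, a signalling chain of the B cell receptor, rose in 5 mutant lines, from 0.18 in KARPAS-422 to 0.85 in WSU-DLCL2. SYK, the kinase it engages, rose in WSU-DLCL2 (0.55), Pfeiffer (0.19) and SU-DHL-6 (0.17) and fell in SU-DHL-10 (-0.28) and HT (-0.48). FYN rose in Pfeiffer, SU-DHL-6, DB and OCI-LY-19 (0.70 to 0.88), and CD79A, the partner of CD79B, rose in Pfeiffer (0.55), OCI-LY-19 (0.32) and WSU-DLCL2 (0.19) and fell in KARPAS-422 (-0.20).

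On chromosome 1 the genes FCRL5, FCRL4, FCRL3, FCRL2 and FCRL1 follow each other without another protein-coding gene between them, and FCRLA and FCRLB lie side by side elsewhere on it, by the RefSeq annotation. Of the nearest 5 annotated genes on each side of these groups, 5 were measured and 4 were tested. CD5L, the neighbour of FCRL1, was called in no line. DUSP12 fell in WSU-DLCL2 (-0.51) and KARPAS-422 (-0.48), ATF6 rose in KARPAS-422 (0.46), and FCGR2B is described above. In KARPAS-422, where FCRL2, FCRL3 and FCRL5 rose, CD5L changed by 0.55 (SE 0.45, adjusted p = 0.415), an error too large to show whether it moved with them.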

How the data were processed

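The authors deposited log2 values of 54675 probe sets on 40 arrays, made from biotin-labelled total RNA with MAS5, per the submitters' processing notes (version not given in the sources used here). The values show that each array was scaled to a 2% trimmed mean signal of 500. The values were turned back to signals and analysed as log2(signal + 17.7), the pseudocount being the median over arrays of the 25th percentile. In the platform's annotation, 41091 probe sets had 1 gene symbol, 1801 several, 11721 none and 62 were controls. Each gene was represented by its probe set of highest mean, without reference to treatment, and tested if above the array median on at least 2 arrays. With limma 3.58.1 in R 4.3.3, 20 group means were fitted over all 40 arrays (20 residual degrees of freedom, 6.98 prior, intensity trend), giving each line's response, pairwise differences and a moderated F test. All adjusted p-values come from limma with Benjamini-Hochberg adjustment over 15211 genes, separately for each contrast. Genotype and gIC50 were tested with limma on 1 value per line, 7 mutant and 3 wild type. Arrays give no count of molecules, and 2 arrays per group limit the precision. The scripts were tested on simulated data, and promoters were searched in python 3.11.15.

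Alternatives covered the pseudocount, scaling, filter, probe set, trend, fit within each line, replicate block, left-out arrays and lines, and the description tag. The text names every member, the 3 genes most like each in level and in response, the tested ones among the 5 nearest annotated genes on each side, up to 4 genes per list called in at least 4 lines, and FCGR2B, FCRL6, FCER2, PTPN6 and INPP5D. CD72, LAIR1, CEACAM1, PECAM1 and the single marker genes were named after their values were seen. The members and lists were chosen with earlier results of these data known. Protein sequences were not used here.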

Additional observations from a re-analysis of the deposited data

Results flagged for a closer look

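The DMSO level and the response of each of the 7 genes over the 7 mutant lines made 14 groups of values. Pfeiffer lay far from the other mutant lines in 3 of them. The rule marks about 1 in 20 groups by chance if groups are independent, but these share arrays. The share over all genes was not computed, so the count is a description. Pfeiffer's DMSO level of FCRL1 was 4.56 and of FCRLA 8.75, both below the other mutant lines, and its FCRLA response was 1.08, above theirs.

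The responses differed between the 10 lines for all 7 genes by limma's moderated F test, with adjusted p-values of 0.0192 for FCRL1, 1.37e-05 for FCRL2, 1.42e-14 for FCRL3, 0.0176 for FCRL4, 0.0258 for FCRL5, 0.000669 for FCRLA and 4.24e-08 for FCRLB. With a replicate block the adjusted p was 0.104 for FCRL1, 0.0902 for FCRL4 and 0.0579 for FCRL5, which ended those 3 calls. The test without the block called 38.8% of all genes, and FCRL4 had passed the filter only through the groups in which it was high.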

How the results depend on the processing

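Of the values for called responses, 149 of 183 under other settings and 53 of 68 with 1 array left out kept their direction and their call. The 14 rises numbered 13 to 15 with 1 array left out, and the 3 falls 2 to 5. The falls numbered 7 with a pseudocount of 64, 6 with arrays at equal medians and 5 with each line fitted by itself; the cause was not tested. Equal medians took the median response of all genes in SU-DHL-10 from 0.06 to -0.17 and in WSU-DLCL2 from 0.07 to -0.16. In KARPAS-422 it went from 0.01 to -0.14. Falls and lost rises at equal medians are read relative to that shift. The second probe set reversed FCRL2 in Pfeiffer (0.51, adjusted p = 0.0169, against -0.05) and FCRL3 in SU-DHL-4 (-0.071, adjusted p = 0.980, against 0.40), where both second probe sets were below the array median on all 4 arrays. With the description tag as covariate 1 member, FCRL5, was called for the mutant mean.

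Arrays with the same replicate number did not deviate together (correlations of -0.04 to 0.07 over the 10 lines), so the numbers were not used as pairs. With a replicate block, 4 of 7 members rather than 7 were called as differing between lines (FCRL1, FCRL4 and FCRL5 were no longer called), and FCRL3 in SU-DHL-4 (adjusted p = 0.108) and FCRL4 in HT (adjusted p = 0.0619) lost their calls. FCRL4, and FCRL1 in Pfeiffer, were too close to background for their changes to be sized well.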
